A study of Mus musculus with 2 samples.

Results

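Interferon-stimulated genes were examined in ribosome footprint counts of mouse lung fibroblasts, as a set of 41 genes of the type I and type II interferon responses chosen by name. Chemokines, Parp genes and antigen presentation genes were left out of the set. Of the 41, 39 had a row in a table of 14886 protein-coding genes, and Mx1 and Mx2 were not analysed here. Of the 39, 37 passed the floor used for ratios, an average of 20 counts over the libraries, and Ifit3 and Irf3 did not. The study concerns radiation-induced lung fibrosis and rosmarinic acid, and it holds 1 library labelled IR and 1 labelled NC. Neither abbreviation is spelled out in the labels, which give no strain, age, dose, time or replicate and do not say whether the cells are a line or a primary culture. Both libraries came from cells exposed to cycloheximide, which arrests elongating ribosomes.

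Interferons are secreted proteins, and those of type I are released by cells on sensing foreign or misplaced nucleic acid. Interferons signal through surface receptors and Janus kinases to STAT and IRF transcription factors, which bind short DNA elements near their target genes. The products of these genes sense viral RNA, block translation, degrade RNA, restrict virus assembly or attack the vacuoles of intracellular parasites. In lung fibroblasts the programme is known as part of innate defence, and a ribosome footprint count of such a gene reflects both its mRNA amount and the ribosomes on each mRNA.

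Library totals were 888835 counts for IR and 695446 for NC. Libraries were scaled with TMM factors, which assume that most genes do not differ. Fold means scaled IR over scaled NC throughout, with the exact 95% interval of the count share in brackets. With 1 library per group there was no replicate spread and no test, and intervals cover counting error only, with each read taken as a separate footprint. Fibroblast markers were plentiful, with 11133 and 8570 counts over 11 genes. Markers of the labelled cell type were thus present, which does not exclude other cell types. Of leukocyte markers, Ptprc had 8 counts in IR against 0 in NC, Cd68 3 and 0, Itgam 6 and 0 and Lyz2 4 and 0. All 7 leukocyte markers in the table summed to 454 and 333 counts, a fold of 1.35 (1.17 to 1.56), of which Cd74 held 244 and 169 and Cd3e 178 and 157. Endothelial markers summed to 6954 and 2715 counts, a fold of 2.53 (2.42 to 2.65), of which Emcn held 6842 and 2618. That fold is thus mostly that of Emcn. Tie1, with 21 and 53 counts, and Cldn5, with 0 and 5, went the other way, while the other endothelial markers had more counts in IR. Mesothelial markers summed to 478 and 101, a fold of 4.68 (3.77 to 5.85), of which Wt1 held 417 and 77. Epithelial markers summed to 15 and 3, a fold of 4.94 (1.40 to 26.6). The part of such cells in the ratios below was not tested, and in bulk libraries fewer cells of a type and less RNA per cell cannot be told apart.

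Of the 37 interferon-stimulated genes above the floor, 26 had a fold of IR over NC above 1 and 11 below 1 with TMM scaling. A fold below 1 was found for 50.5% of all 5989 genes above the floor. Of the 37, 12 were at least 1.5-fold higher in IR (32.4%), against 22.3% of all genes. At least 1.5-fold lower were 2 (5.41%), against 23.4% of all genes. Of the remaining 23, 14 lay between 1-fold and 1.5-fold and 9 between 1-fold and 1.5-fold lower. The share on the high side thus lay somewhat above the background, and the share on the low side under it. The median log2 ratio was 0.35 (order-statistic 95% interval 0.25 to 0.45), against -0.02 for all genes. The lower and upper quartiles were -0.07 and 0.69, against -0.55 and 0.52 for all genes. The upper part of the distribution therefore lay near that of all genes, and the lower part was displaced upward.

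**Figure D1:**
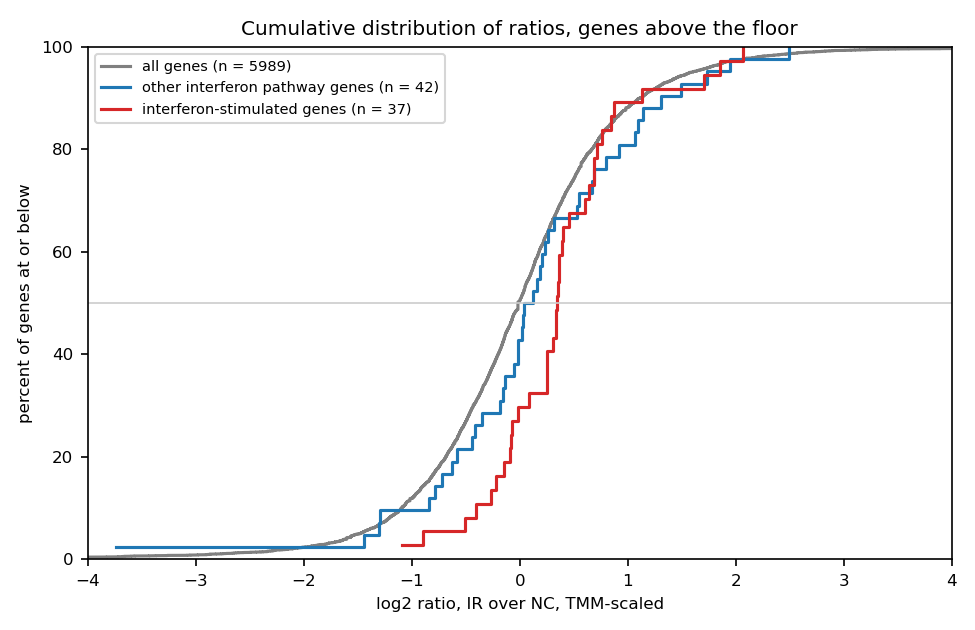
Percent of genes (vertical axis) at or below each log2 ratio of IR over NC (horizontal axis, TMM-scaled), for all genes in grey, the 42 other interferon pathway genes above the floor in blue and the 37 interferon-stimulated genes in red. The red curve lies to the right of the grey one in its lower part, with medians of 0.35 and -0.02, and meets it near the top.

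The number of members past a fold or with an interval on one side of 1 changed with the scaling. Scaling by total counts lowered the median log2 ratio of all genes by 0.34. It left 4 members at least 1.5-fold higher and 5 at least 1.5-fold lower, which is 10.8% and 13.5%, against 13.3% and 37.8% of all genes. The share on the high side was then near the background, and that on the low side again under it. Since a scaling shifts all log2 ratios by the same amount, the members' place among all genes is the same under each by construction. Relative to the median of all genes, the members' median lay 0.36 higher on the log2 scale. By the same measure 26 of the 37 (70.3%) lay above the all-gene median, where 49.8% of all genes lie. With TMM scaling, counting intervals wholly above 1 were found for 15 members, against 23.5% of all genes, and wholly below 1 for 3, against 23.7%. With total-count scaling, an alternative added after seeing the data, they were found for 4 and 6, against 13.1% and 39.1% of all genes. The 4 were Oasl1, Ifit2, Cmpk2 and Rsad2. The 11 whose interval then held 1 were Ifit1, Irf1, Irf7, Stat2, Oasl2, Oas3, Ifi44, Rnf213, Gbp2, Gbp3 and Gbp7, so the intervals above 1 given for them below hold for TMM scaling. The 6 below 1 with total-count scaling were Isg15, Stat3, Ifi27, Ifi35, Zbp1 and Eif2ak2. Of these, Isg15, Zbp1 and Eif2ak2 had intervals that held 1 with TMM scaling. With TMM scaling, at least 2-fold higher were 4, against 11.8% of all genes, and at least 2-fold lower was 1, Ifi27, against 11.9%.

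The excess over all genes was smaller among the most counted genes, because ratios of all genes there were higher. Among genes with a mean of 200 counts or more, the members' median was 0.35 and that of all genes 0.26. From 100 to 200 counts these medians were 0.33 and 0.01, from 50 to 100 counts 0.40 and 0.00, and from 20 to 50 counts 0.36 and -0.08. The members' median was thus alike in each count range, at 11, 8, 9 and 9 genes from the lowest range up. With a floor of 100 counts, 3 of 18 members (16.7%) were at least 1.5-fold higher, against 23.7% of all genes, and 1 (5.56%) was lower, against 13.7%. At that depth the count on the high side was not above the background. The members of 200 counts or more were also close to each other, with quartiles of 0.25 and 0.40, against -0.22 and 0.78 for all genes of that range.

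**Figure D2:**
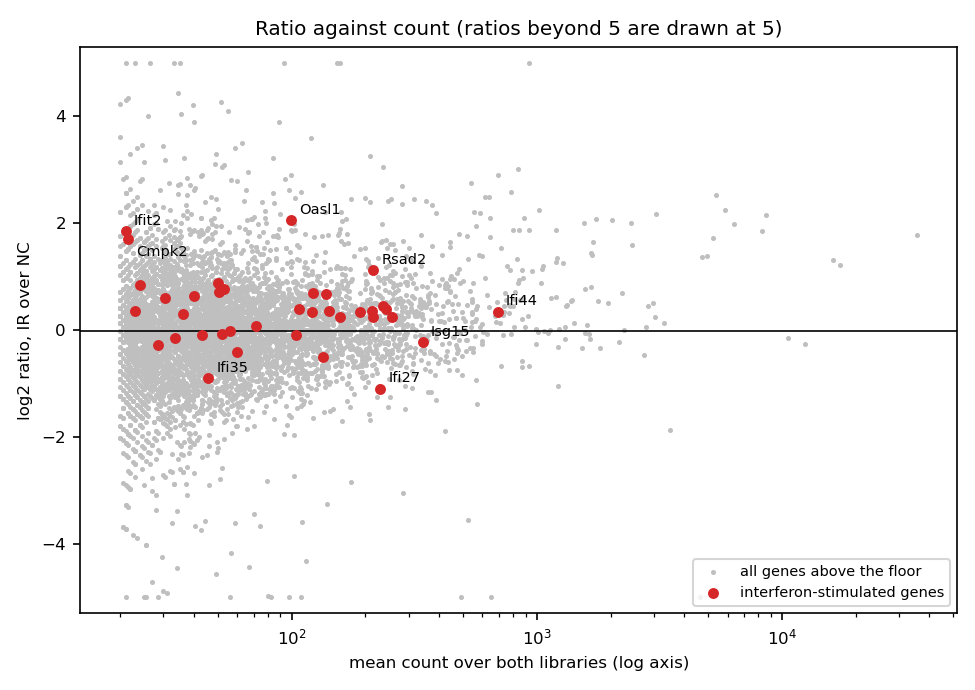
Log2 ratio of IR over NC (vertical axis, TMM-scaled) against the mean count of both libraries (horizontal log axis), with all genes above the floor in grey, interferon-stimulated genes in red and the all-gene median as a line. Most red points lie in a band just above the line, and Oasl1, Ifit2, Cmpk2 and Rsad2 above it and Ifi27 below it stand farthest out.

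Summed over all 39 members, the IR library had 5177 counts and the NC library 4256, a fold of 1.202 (1.154 to 1.252). As a share of each library's total this was 0.582% in IR and 0.612% in NC. These measures differ in direction, since the share carries no TMM factor. Summed over all genes the same fold was 1.263 (1.259 to 1.267), so the members' summed fold was not above that of all genes. Without Ifi44, the member with the most counts, the members' summed fold was 1.19.

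Promoters of 6 members are shown because they belong to the highest and lowest ratios among well-counted members and can be set beside the ratios below. They are the 3 highest and 3 lowest folds among members with a RefSeq promoter entry and 100 or more counts in 1 library (GRCm38.p6, the assembly behind mm10). Each runs 5′ to 3′ over the 250 bases before and the 50 bases from the annotated start. Capitals mark matches to either of 2 motif cores searched. The core of the interferon-stimulated response element, bound by IRF proteins, was taken as GAAA, any 2 bases and GAAA, on both strands. The core of the gamma-activated site, bound by STAT dimers, was taken as TTC, any 3 bases and GAA, which reads alike on both strands. Neighbouring matches may overlap, and capitals then run together.
Oasl1, chr5:114922990-114923289, plus strand: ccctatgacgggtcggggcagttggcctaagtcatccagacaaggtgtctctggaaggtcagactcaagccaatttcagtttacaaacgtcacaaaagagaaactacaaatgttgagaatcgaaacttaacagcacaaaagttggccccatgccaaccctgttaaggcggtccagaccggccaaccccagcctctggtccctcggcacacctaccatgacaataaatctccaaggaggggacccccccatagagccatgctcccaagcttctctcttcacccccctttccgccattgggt
Rsad2, chr12:26456403-26456702, minus strand: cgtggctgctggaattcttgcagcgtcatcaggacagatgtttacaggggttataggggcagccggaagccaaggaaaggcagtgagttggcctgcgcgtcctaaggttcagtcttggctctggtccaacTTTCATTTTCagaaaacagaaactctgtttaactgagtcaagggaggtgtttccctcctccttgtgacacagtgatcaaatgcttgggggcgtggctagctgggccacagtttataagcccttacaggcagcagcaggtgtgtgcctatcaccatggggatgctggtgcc
Gbp3, chr3:142559794-142560093, plus strand: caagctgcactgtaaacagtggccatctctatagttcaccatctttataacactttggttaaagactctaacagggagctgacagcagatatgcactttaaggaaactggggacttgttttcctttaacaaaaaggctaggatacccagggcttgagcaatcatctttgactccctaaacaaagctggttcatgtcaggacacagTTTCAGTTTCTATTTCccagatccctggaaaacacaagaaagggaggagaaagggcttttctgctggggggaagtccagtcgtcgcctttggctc
Bst2, chr8:71537423-71537722, minus strand: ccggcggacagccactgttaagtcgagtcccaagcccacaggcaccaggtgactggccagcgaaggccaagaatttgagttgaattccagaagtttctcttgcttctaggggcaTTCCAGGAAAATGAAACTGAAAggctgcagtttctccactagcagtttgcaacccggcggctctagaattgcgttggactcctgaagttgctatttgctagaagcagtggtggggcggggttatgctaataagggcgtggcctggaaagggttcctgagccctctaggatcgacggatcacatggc
Isg15, chr4:156200769-156201068, minus strand: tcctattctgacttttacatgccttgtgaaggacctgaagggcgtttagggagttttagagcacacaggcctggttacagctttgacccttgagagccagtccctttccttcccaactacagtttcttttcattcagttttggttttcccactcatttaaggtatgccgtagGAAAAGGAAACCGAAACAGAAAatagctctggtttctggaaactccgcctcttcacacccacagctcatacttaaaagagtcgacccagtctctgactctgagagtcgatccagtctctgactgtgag
Stat3, chr11:100939491-100939790, minus strand: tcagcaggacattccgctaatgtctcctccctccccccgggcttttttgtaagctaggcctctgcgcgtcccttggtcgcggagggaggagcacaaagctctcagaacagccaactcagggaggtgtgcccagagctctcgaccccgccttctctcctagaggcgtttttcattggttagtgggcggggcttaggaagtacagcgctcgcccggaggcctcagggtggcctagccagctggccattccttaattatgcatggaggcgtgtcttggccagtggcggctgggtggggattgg

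The Isg15 promoter held 3 overlapping response element cores, the first starting 78 bases before the gene start, and its fold was below 1. Bst2 held 2 such cores that overlap each other, from 130 bases before the start, and the first of them also overlaps a gamma-activated site core. Gbp3 held 2 overlapping cores from 45 bases before the start and Rsad2 held 1 at 120 bases, both on the other strand. Oasl1, with the highest fold of all members, and Stat3 held no match in this window. Over the 32 members with a promoter entry, 16 (50%) held a response element core, against 3.12% of 11718 genes of the table with an entry. A gamma-activated site core was present in 10 (31.2%), against 7.02%. Among members above the floor, the median log2 ratio was 0.36 for the 15 with a response element core and 0.40 for the 15 without. For the gamma-activated site core it was 0.31 for the 10 with and 0.39 for the 20 without. The members thus carried these letters more often than the genes of the table at large, while members with and without them had similar ratios. Dhx58, Ifi27, Iigp1, Oas2, Rtp4, Usp18 and Zbp1 had no promoter entry.

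**Figure D3:**
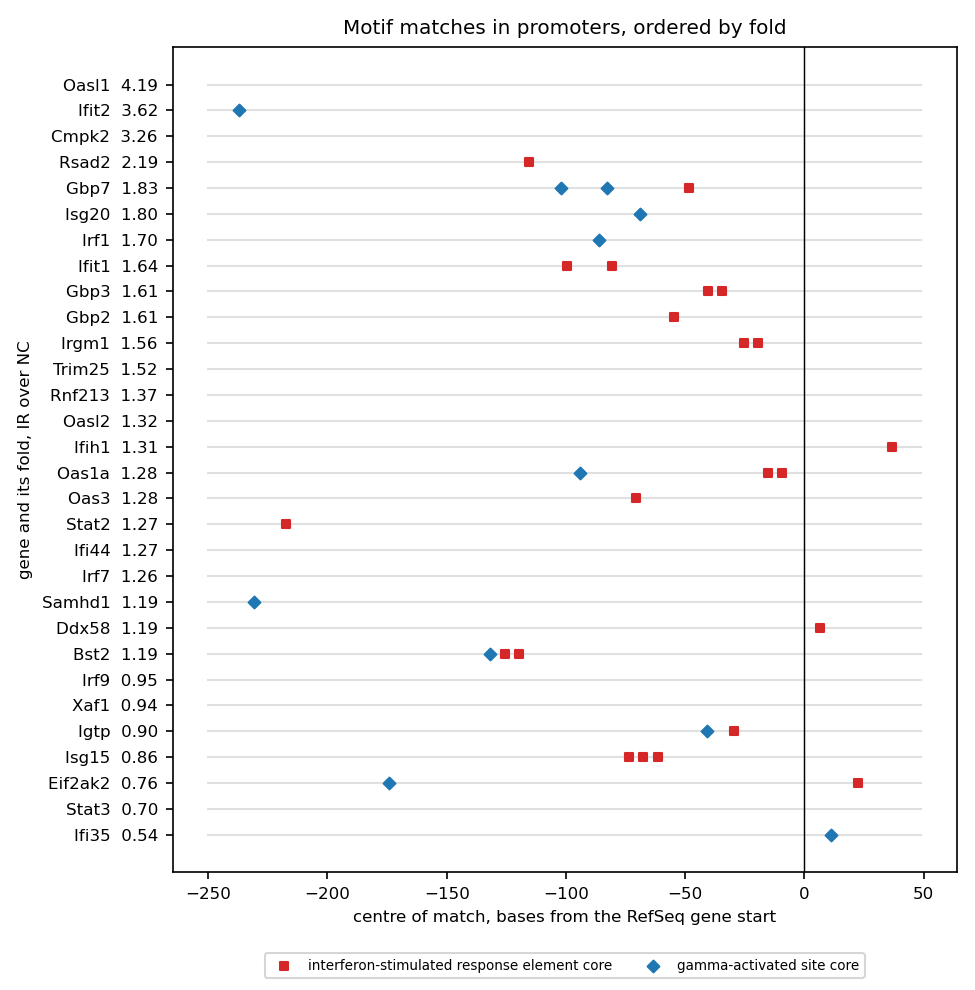
Each line is the promoter of 1 member above the floor, ordered by its fold of IR over NC (written beside the gene), and the horizontal axis gives the centre of each motif match in bases from the RefSeq gene start. Response element cores (red squares) and gamma-activated site cores (blue diamonds) occur at high and at low folds, and Oasl1 at the top has neither.

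Of the transcription factors, Irf1 was higher in IR and Stat3 lower, while the factors that carry type I signals differed less. Irf1, which drives much of the response to interferon gamma, had 67 counts in IR against 39 in NC, a fold of 1.70 (1.13 to 2.59). Stat2, which acts with IRF9 in the type I response, had 240 and 186 counts, a fold of 1.27 (1.05 to 1.55). Irf7, which amplifies type I interferon production, had 213 and 167 counts, a fold of 1.26 (1.02 to 1.55). The intervals of these 3 lay above 1 and Irf1 passed 1.5-fold with TMM scaling, which none of them did with total-count scaling. Irf9 had 51 and 53 counts, a fold of 0.951 (0.634 to 1.42), so no difference was detectable at this depth. Stat3, which relays interleukin-6 family cytokines and is itself induced by interferon, had 112 and 157 counts, a fold of 0.705 (0.548 to 0.904). Its interval lay below 1 and it did not reach 1.5-fold lower. Irf3, the latent factor that starts interferon-beta transcription, had 0 counts in IR against 3 in NC, which is at the limit of 3 counts, and no fold was taken. The Irf1 gene shares bases with Gm17334, Irf7 with Phrf1, Irf9 with Rnf31, Stat3 with Stat5a and, in RefSeq, Stat2 with Apof. A few of their reads could belong to the partner, since the strand setting is not stated. Irf9 and Rnf31 lie on the same strand, so for them that setting would not separate the reads.

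Sensors of foreign nucleic acid differed little. Ddx58, which encodes the RNA sensor RIG-I, had 172 and 143 counts in IR and NC. Ifih1, which encodes the long double-stranded RNA sensor MDA5, had 122 and 92. Dhx58, which encodes their relative LGP2, had 40 and 32. All 3 were higher in IR by count, with folds from 1.19 to 1.31 and intervals that held 1. Trim25, a ubiquitin ligase that assists RIG-I, had 37 and 24 counts, a fold of 1.52 (0.887 to 2.66), so it passed the fold and not its counting interval. Zbp1, a sensor of Z-form nucleic acid that can trigger necroptosis, had 102 and 107. Eif2ak2, which encodes the translation-blocking kinase PKR, had 52 and 68. Intervals of Zbp1 and Eif2ak2 held 1 with TMM scaling and lay below 1 with total-count scaling.

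In the oligoadenylate synthetase family, whose active enzymes make the second messenger of RNase L, Oasl1 stood apart from its relatives. Oasl1 had 161 counts in IR against 38 in NC, a fold of 4.19 (2.92 to 6.13), the highest of the 37. It encodes a family member without synthetase activity that is known in mouse to inhibit translation of Irf7 mRNA. Oasl2, which lies beside it 11.0 kb away on chromosome 5, had 276 and 207 counts, a fold of 1.32 (1.10 to 1.58). The intervals of these neighbours did not overlap. Oas3 had 161 and 124 counts, Oas2 74 and 69 and Oas1a 26 and 20, with folds of 1.28, 1.06 and 1.28. All 5 lay above the all-gene median, and Oasl1 passed 1.5-fold. Oas1a has close relatives in its cluster, among them Oas1g with 8 and 20 counts, and reads that match several copies may be lost or split.

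IFIT1 binds viral RNA that lacks the host cap methylation, and the genes of its family lie together on chromosome 19. Ifit2 had 33 counts in IR against 9 in NC, a fold of 3.62 (1.70 to 8.61). Ifit1 had 63 and 38, a fold of 1.64 (1.08 to 2.52). Ifit3 had 19 and 14, below the floor. All 3 had more counts in IR, with few reads each, and the interval of Ifit2 is wide and overlaps that of Ifit1. Between Ifit3 and Ifit1 lie Ifit3b, listed as I830012O16Rik, and Ifit1bl2, listed as 2010002M12Rik, with 1 and 0 and with 0 and 1 counts. Ifit3b is a near-identical copy of Ifit3, so the Ifit3 count is uncertain. The RefSeq gene Ifit1bl1 spans Ifit1.

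In the ISG15 system, neither the modifier nor its protease differed beyond counting error with TMM scaling. Isg15, the ubiquitin-like protein that is attached to newly made proteins, had 318 counts in IR against 366 in NC, a fold of 0.858, with an interval from 0.736 to 1. Usp18, which removes ISG15 and dampens the type I receptor, had 135 and 106. Its interval held 1, as did that of Isg15, whose upper end lay at 1. With total-count scaling the interval of Isg15 lay wholly below 1. Of the conjugation enzymes, Uba7, the activating enzyme, had 46 and 68 counts, a fold of 0.668 (0.449 to 0.986). Ube2l6, the conjugating enzyme, had 37 and 13, a fold of 2.81 (1.46 to 5.76), and the ligase gene Herc6 had 34 and 23. The activating and the conjugating enzyme thus differed in opposite directions beyond counting error.

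Among antiviral effectors, Rsad2 and its neighbour Cmpk2 were higher in IR. Rsad2 encodes viperin, which makes a chain-terminating nucleotide, and had 297 counts in IR against 134 in NC, a fold of 2.19 (1.78 to 2.71). Cmpk2, a mitochondrial nucleotide kinase gene 12.8 kb away on chromosome 12 with no other listed gene between, had 33 and 10, a fold of 3.26 (1.57 to 7.42). Both intervals lay above 1.5-fold. Isg20, an RNA exonuclease gene, had 31 and 17 counts, a fold of 1.80 (0.967 to 3.47). Bst2, which encodes tetherin, the tether of budding virus, had 280 and 233, a fold of 1.19 (0.994 to 1.42). Samhd1, which depletes the nucleotides needed for reverse transcription, had 235 and 195, a fold of 1.19 (0.981 to 1.45). The interval of Isg20 held 1, and so did those of Bst2 and Samhd1.

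**Figure D4:**
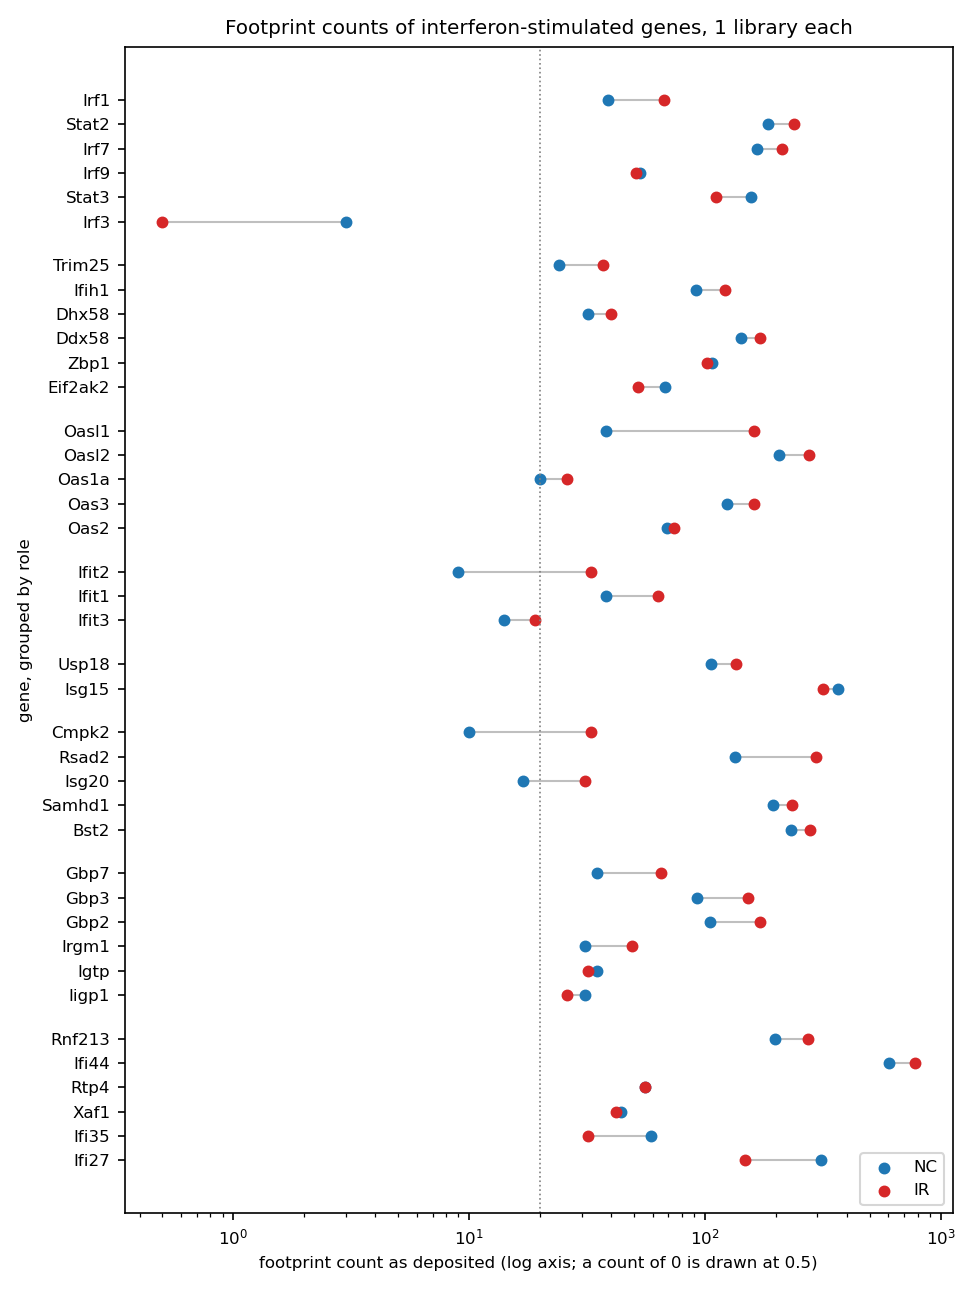
Footprint counts as deposited (horizontal log axis) of the 39 members in the IR library (red) and the NC library (blue), grouped by role, with a dotted line at 20 counts and the count of 0 of Irf3 drawn at 0.5. Red lies to the right of blue for most members, with wide gaps for Oasl1, Ifit2, Cmpk2 and Rsad2, and to the left for Ifi27, Ifi35 and Stat3. The counts are not scaled, and the IR library holds more of them in total (888835 against 695446).

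The interferon-inducible GTPases, which coat and break the membranes of pathogen vacuoles, were higher in IR for the 3 guanylate-binding proteins and mixed for the immunity-related GTPases. Gbp2 had 171 counts in IR against 105 in NC, a fold of 1.61 (1.26 to 2.07). Gbp3 had 152 and 93, a fold of 1.61 (1.24 to 2.11). Gbp7 had 65 and 35, a fold of 1.84 (1.198 to 2.85). These 3 guanylate-binding protein genes lie in 1 run on chromosome 3 from 142530338 to 142638008 (mm10), with no other listed gene between them, and their folds were alike within counting error. Of the immunity-related GTPases, Irgm1, a regulator of the other members, had 49 and 31 counts, a fold of 1.56 (0.976 to 2.53). Igtp had 32 and 35 and the effector gene Iigp1 26 and 31, with folds of 0.903 and 0.829 and intervals that held 1. Igtp overlaps Irgm2, which had 17 and 30 counts, over most of its length, so the split of reads between them is uncertain. The Gbp9 gene, outside the member set, had 78 and 20 counts, a fold of 3.85 (2.33 to 6.65). Among its other listed relatives, Gbp6 had 20 and 6 counts, Gbp4 5 and 10 and Gbp8 3 and 0, all below the floor. The span of Gbp9 lies within that of Gbp8 and overlaps that of Gbp4, on the same strand. The split of reads between Gbp9, Gbp8 and Gbp4 is therefore uncertain.

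**Figure D5:**
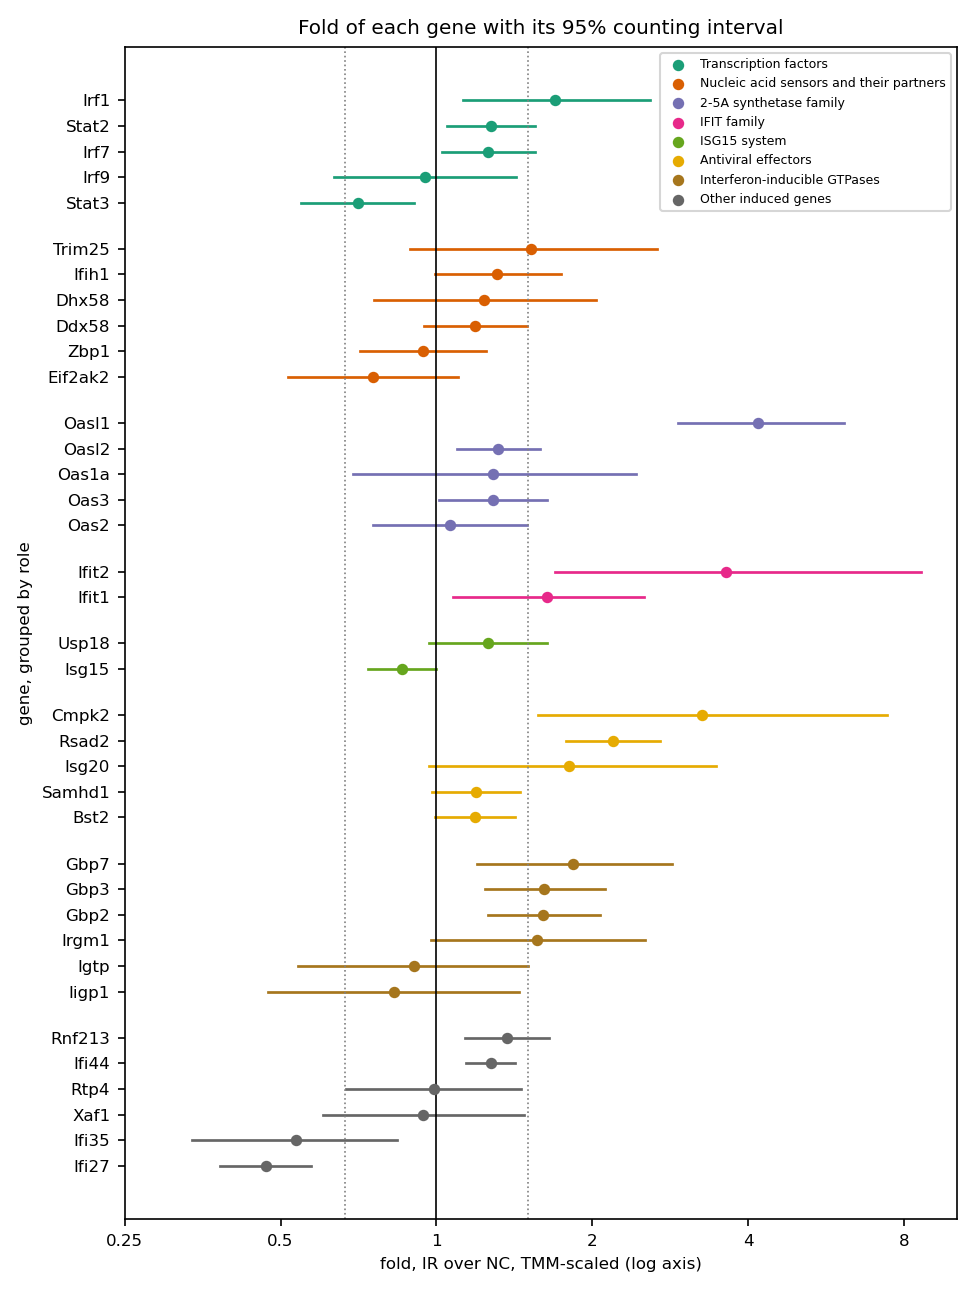
Fold of IR over NC (horizontal log axis, TMM-scaled) of the 37 members above the floor, coloured and grouped by role. Points are folds, bars are exact 95% counting intervals of 1 library against 1, and dotted lines mark 1.5-fold either way. The bars of Oasl1, Ifit2, Cmpk2 and Rsad2 lie wholly to the right of the upper dotted line, and that of Ifi27 wholly to the left of the lower one.

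The other induced genes held both members that were at least 1.5-fold lower. Ifi27, which encodes a small hydrophobic protein of mitochondrial and nuclear membranes, occupies bases 103434211 to 103440239 of chromosome 12 (mm10). Its row had 148 counts in IR against 312 in NC, 2.13-fold lower (1.75 to 2.61). In RefSeq the gene Ifi27l2a spans this whole interval, and without the strand setting the reads of both cannot be told apart. Ifi35, which encodes a leucine zipper protein that binds NMI, had 32 and 59 counts, a fold of 0.536 (0.337 to 0.838). Ifi44, the member with the most counts, had 780 and 606, a fold of 1.27 (1.14 to 1.42). Rnf213, a giant ubiquitin ligase and ATPase gene, had 274 and 198, a fold of 1.37 (1.13 to 1.65). Both intervals lay above 1 with TMM scaling, while with total-count scaling the log2 ratios were 0.010 for Ifi44 and 0.11 for Rnf213. Xaf1, a partner of the apoptosis inhibitor XIAP, had 42 and 44 counts and Rtp4, a chaperone of receptor trafficking, 56 and 56.

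Genes next to each other could be compared in 5 stretches of neighbours no more than 100 kb apart. With TMM scaling, the Gbp7-Gbp3-Gbp2 and Rsad2-Cmpk2 stretches held members that were all at least 1.5-fold higher, as did the Ifit stretch for its members above the floor. In the Oasl2-Oasl1 pair 1 of the neighbours was, and in Oas2-Oas3 neither. Of all genes above the floor, 22.3% were at least 1.5-fold higher with TMM scaling and 13.3% with total-count scaling. With total-count scaling Gbp7, Gbp3, Gbp2 and Ifit1 fell under 1.5-fold, with log2 ratios of 0.54, 0.35, 0.35 and 0.38. Rsad2-Cmpk2 was then the only stretch whose members above the floor all passed it.

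The rest of the interferon pathway was described from 91 further genes, of which 73 had a row and 42 reached the floor. At least 1.5-fold higher were 12 (28.6%) and at least 1.5-fold lower 8 (19.0%), against 22.3% and 23.4% of all genes. With total-count scaling 8 were higher and 12 lower, against 13.3% and 37.8%. With TMM scaling their median log2 ratio was 0.08 (-0.13 to 0.32), so they lay closer to all genes than the members did, and the difference between both lists was not tested. Of the interferon genes listed, Ifna2 had a row, with 1 count in each library. Of the receptor genes, Ifnar1, a chain of the type I receptor, had 3 and 8 counts. Ifnar2, its partner chain, had 35 and 35, a fold of 0.988 (0.6004 to 1.63). Ifngr1, a chain of the interferon gamma receptor, had 45 and 28, a fold of 1.59 (0.969 to 2.64). The intervals of Ifnar2 and Ifngr1 held 1, and the other receptor genes with a row lay below the floor.

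Jak1, a kinase of all interferon receptors, had 154 and 167 counts, a fold of 0.911 (0.727 to 1.14). Jak2, a kinase of the interferon gamma receptor, had 51 and 29, a fold of 1.74 (1.08 to 2.84). Of these kinases Jak2 alone had an interval above 1 with TMM scaling, and intervals of pathway genes are given for that scaling alone. Genes that lead to interferon production went both ways. Mavs, the mitochondrial adaptor of RIG-I and MDA5, had 30 and 12 counts, a fold of 2.47 (1.23 to 5.30). Tmem173, which encodes the DNA-sensing adaptor STING, had 54 and 25, a fold of 2.13 (1.31 to 3.58). Traf3, a ubiquitin ligase downstream of these adaptors, had 13 and 35, a fold of 0.367 (0.178 to 0.711). Of the negative regulators, Pias1, a SUMO ligase that represses cytokine signalling, had 35 and 57 counts and Socs3 47 and 63.

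Outside the member set, the 3 highest folds above the floor were those of Ifi203, Gbp9 and Slfn2, and the 3 lowest those of Ogfr, Traf3 and Tdrd7. Below the floor, Slfn8 had 23 counts in IR against 5 in NC, Myd88 4 and 25 and Slfn5 0 and 8. Ifi203, of the nuclear DNA-binding Ifi200 family, had 1091 counts in IR against 191 in NC, a fold of 5.64 (4.83 to 6.62). Its relative Ifi204 had 99 and 86, and reads shared between the similar genes of this family could be split. Slfn2, a Schlafen family gene, had 54 and 16. Ogfr, the opioid growth factor receptor gene, had 6 and 79 counts, a fold of 0.0750 (0.0267 to 0.171). Tdrd7, which encodes a Tudor domain protein, had 25 and 61. Ifitm3, which blocks virus entry in endosomes, had 1550 and 1591, a fold of 0.962 (0.897 to 1.03), and was the pathway gene with the most counts.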

How the data were processed

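Ribosome footprints of mouse lung fibroblasts were measured in 1 IR and 1 NC library, grouped by sample title. The authors deposited raw counts of mapped reads per protein-coding gene, per the file headers, and log2 CPM columns (2), which were not used. Per the submitters' processing notes, the build was mm10 and the tools included HTSeq 0.9.1, cutadapt 1.9.3, TopHat2, Bowtie, DESeq2 and edgeR, with no roles given. Annotation release, strand setting and the handling of multiply matching reads are not stated there. No molecular identifiers are mentioned, so PCR copies may be counted.

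Counts were scaled by TMM (edgeR 4.0.16, R 4.3.3; factors 0.890 and 1.12). Folds carry no pseudocount. Their intervals come from the Clopper-Pearson interval of the IR share of a gene's counts. The limit behind a count of 0, 3 counts, is 3.79 CPM in IR and 3.84 CPM in NC. The procedure was tested on simulated data with counting error alone and known folds in a small part of the genes. That setting could not probe the TMM assumption in these libraries or the spread between replicates. Coding lengths were not used, so levels of different genes were not compared. Members, roles, gene lists and motifs were chosen with earlier results of these data known. Folds are given for members past 1.5-fold, the 10 with the highest mean count, the transcription factors, and, of other pathway genes, receptors, kinases and the 3 highest and lowest; other values named were chosen after they were seen. A gene of that rule is not reported here. Symbols are the table's, and all 39 members matched RefSeq at their position. Other scalings (DESeq2 1.42.0), floors, folds and a pseudocount of 1 were tried. Figures used matplotlib 3.10.9, and tables Python 3.11.15 with pandas 2.3.3, scipy 1.17.1 and numpy 2.4.6.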

Additional observations from a re-analysis of the deposited data

How the results depend on the processing

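No paired analysis was possible because each group holds 1 library. For the same reason no replicate could be left out. With total-count scaling the numbers of members at least 1.5-fold higher and lower were 4 and 5 in place of 12 and 2. Of the 14 members past 1.5-fold either way, 6 stayed past it in the same direction under that scaling. The ratios of 11 of the 37 members then lay outside their counting interval under TMM. The members' median log2 ratio was then 0.010, that of the other pathway genes -0.26 and the summed fold 0.952, the last 2 with the direction turned. The cause is the shift of all ratios. With floors of 50 and 100 counts, 7 and 3 members were higher and 1 and 1 lower, of 26 and 18 tested. The shares higher were 26.9% and 16.7%, against 21.3% and 23.7% of all genes. The shares lower were 3.85% and 5.56%, against 17.3% and 13.7%. The same floors left 5 and 4 other pathway genes higher and 1 and 1 lower, of 22 and 13 tested, beside the same shares of all genes. With a floor of 10 counts 13 of 54 other pathway genes were lower, and with none 20 of 65, against 26% and 28.7% of all genes. A 2-fold limit left 4 of 37 members higher and 1 lower. It left 8 of 42 other pathway genes higher and 4 lower, against 11.8% of all genes higher and 11.9% lower. The median over that of all genes, a measure added after seeing the data, was 0.24 with a floor of 100 counts, where 14 of 18 members lay above the all-gene median. DESeq2 size factors, upper-quartile scaling and a pseudocount of 1 changed none of these counts, and leaving out Oasl1 or members that overlap another listed gene kept the median at 0.34 and 0.35. Depth limits members under 50 counts, whose intervals span more than 2-fold.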
